A study of Mus musculus with 3 samples.

Results

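Coagulation turns soluble fibrinogen into a fibrin mesh, and fibrinolysis takes that mesh apart again. Most factors circulate as inactive precursors that hepatocytes secrete, and several need a vitamin K-dependent modification before they can bind membranes. Endothelial and blood-derived cells add other parts of the system: the carrier of factor VIII, the receptors that restrain thrombin, and the activators of plasminogen. The 33 genes described here were chosen as a list of named coagulation and fibrinolysis genes, and were matched by symbol among the 32285 genes in the deposited tables. All 33 were found, and their unique molecular identifier (UMI) counts were summed by class of nuclei and by library to describe in which nuclei each transcript lay.

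The data were single-nucleus RNA sequencing (sNuc-Seq) of frozen liver from 3 C57BL/6 J mice, with 1 library per mouse. The ND mouse was a male on a normal diet. The 2 STZ-HFHC mice stood for liver fibrosis related to metabolic dysfunction-associated steatohepatitis (MASH). Male pups of that model received 0.2 mg streptozocin, a toxin of pancreatic beta cells, at 3 days of age, and from 4 weeks of age a diet rich in fat and cholesterol with 41 kcal% fat and 43 kcal% carbohydrate. The age of the sequenced mice is not given in the sources used here. Sample codes of unstated meaning in the labels differ between ND and STZ-HFHC, so batch and condition cannot be told apart. No test between conditions was run, since the 1 ND library gives no spread for its group. Ratios to ND are therefore given for each STZ-HFHC mouse, and a gene was called higher or lower only by a rule of size, namely at least 50 UMIs in the class and a ratio of at least 2-fold in both mice.

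After filtering, 8494 ND nuclei, 8921 nuclei of STZ-HFHC 1 and 10921 nuclei of STZ-HFHC 2 were kept, with 42715797 to 55632923 UMIs per library. Clustering without the 33 genes gave 9 named classes, and hepatocyte-like nuclei made up 64.0% of the ND library but 16.5% and 33.6% of the STZ-HFHC libraries. ND and STZ-HFHC nuclei of the hepatocyte-like, endothelial-like, stellate- or fibroblast-like and macrophage-like classes lay almost wholly in separate clusters. Of the 10 hepatocyte markers 7 were highest in their own class in all libraries, against 3 of 8 monocyte markers. Cluster 3, with 0, 1699 and 1302 nuclei in the ND and the 2 STZ-HFHC libraries, was kept out of the hepatocyte-like class because a T cell gene was among its leading genes, a choice made after its genes were seen. Pairs of libraries shared 29 to 32 barcodes.

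Fibrinogen, the precursor of fibrin, is a hexamer of paired alpha, beta and gamma chains encoded by Fga, Fgb and Fgg. The genes lie side by side on mouse chromosome 3 (GRCm38), with Fgg and Fga on the forward strand and Fgb on the reverse strand. Fga spans chr3:83026076-83033627, 11 kb from Fgg and 6.51 kb from Fgb. Their promoters are shown because the 3 chains form 1 protein and Fgg and Fgb were among the members lower in STZ-HFHC hepatocyte-like nuclei. Fga missed the rule of size. Each sequence runs 5' to 3' on the strand of its gene, from 250 bases before to 50 bases after the RefSeq start in GRCm38.p6. Capitals mark matches, on either strand, to GTTAAT (a half-site of the hepatocyte factor HNF1), TTGCNNAA (C/EBP) or CTGGGAA (the IL-6 response element of acute-phase genes). The Fgg region is chr3:83007474-83007773, that of Fga chr3:83025903-83026202 and that of Fgb chr3:83049814-83050113.
Fgg: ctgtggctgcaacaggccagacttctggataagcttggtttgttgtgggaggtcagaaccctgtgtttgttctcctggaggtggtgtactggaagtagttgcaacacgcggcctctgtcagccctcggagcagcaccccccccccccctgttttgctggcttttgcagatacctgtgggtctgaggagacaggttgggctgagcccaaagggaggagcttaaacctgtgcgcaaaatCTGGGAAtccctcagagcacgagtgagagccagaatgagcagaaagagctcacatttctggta
Fga: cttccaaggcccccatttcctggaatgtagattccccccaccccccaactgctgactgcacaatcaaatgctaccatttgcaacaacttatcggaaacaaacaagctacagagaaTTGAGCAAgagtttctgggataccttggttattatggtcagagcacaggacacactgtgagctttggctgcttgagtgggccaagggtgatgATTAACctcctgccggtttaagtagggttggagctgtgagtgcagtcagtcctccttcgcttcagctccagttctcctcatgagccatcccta
Fgb: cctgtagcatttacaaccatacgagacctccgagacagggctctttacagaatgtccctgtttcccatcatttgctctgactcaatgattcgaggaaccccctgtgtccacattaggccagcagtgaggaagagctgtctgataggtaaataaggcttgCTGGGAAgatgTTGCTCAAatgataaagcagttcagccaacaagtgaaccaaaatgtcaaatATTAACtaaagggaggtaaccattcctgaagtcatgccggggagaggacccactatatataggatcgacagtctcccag
The Fgg sequence held the IL-6 letters alone, 13 to 7 bases before the start. Fga held the HNF1 letters 43 to 38 bases and the C/EBP letters 135 to 128 bases before the start, both on the reverse strand. Fgb was the only one of the 3 with the HNF1, C/EBP and IL-6 letters together. HNF1 lay nearest the start, C/EBP from 80 bases and IL-6 from 91 bases before it. RefSeq promoters were matched for 25 of the 33 genes. The HNF1 letters lay in 14.8% of the members' promoters and in 7.10% of all 32851 promoters of this length. The C/EBP letters lay in 37.0% of the members' promoters against 10.8% of all, and the IL-6 letters in 18.5% against 11.1%. TATAAA (the TATA box) was also searched and lay in 11.1% of the members' promoters against 13.6% of all. It had no match in the sequences shown. These matches are a description of letters and no evidence of binding.

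Hepatocyte transcripts were found in every class of nuclei. A fixed list of 20 other hepatocyte transcripts stood, at its median, at 41.2% to 88.7% of the hepatocyte-like level in the 8 other classes of the 3 libraries. The 22 members with at least 20 CPM (UMIs of the gene per 1000000 UMIs of the class) in hepatocyte-like nuclei of every library had medians of 40.6% to 98.5%, and 458 of their 528 values, or 86.7%, lay inside the range of the fixed list in the same class and library. With every nucleus thinned to 1000 UMIs, Fgb was detected in 24.8% (exact 95% interval 23.6 to 26), 8.62% and 9.30% of hepatocyte-like nuclei of ND, STZ-HFHC 1 and STZ-HFHC 2. The shares in T or NK cell-like nuclei, which should lack the gene, were 26.4% (18.3 to 35.9), 7.94% and 6.92%. Without thinning they were 61.1%, 42.8% and 40.9% in hepatocyte-like nuclei of median 4026.5, 7266 and 6212 UMIs, and 62.0%, 16.2% and 16.9% in T or NK cell-like nuclei. Values of the members inside this range were read as background and not as expression. All intervals cover counting error only.

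**Figure D1:**
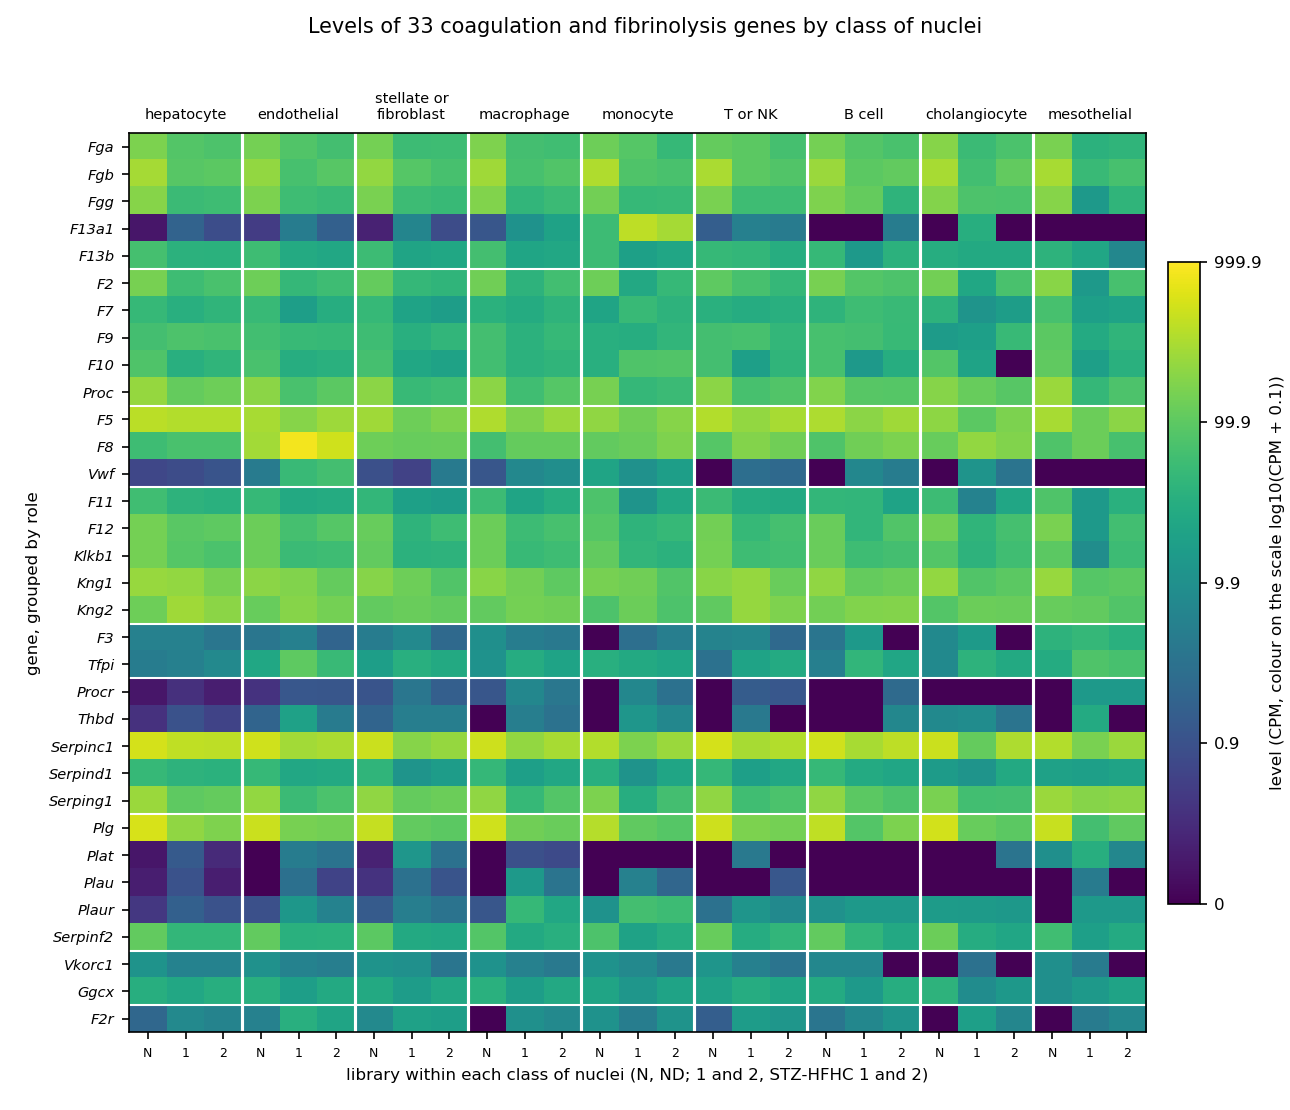
Level of each of the 33 genes (rows, grouped by role) in each library of each class of nuclei (columns), in CPM on a log colour scale. Liver-secreted members were at like levels in all classes of a library, while F8, F13a1 and Vwf stood out in endothelial-like or monocyte-like columns.

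**Figure D2:**
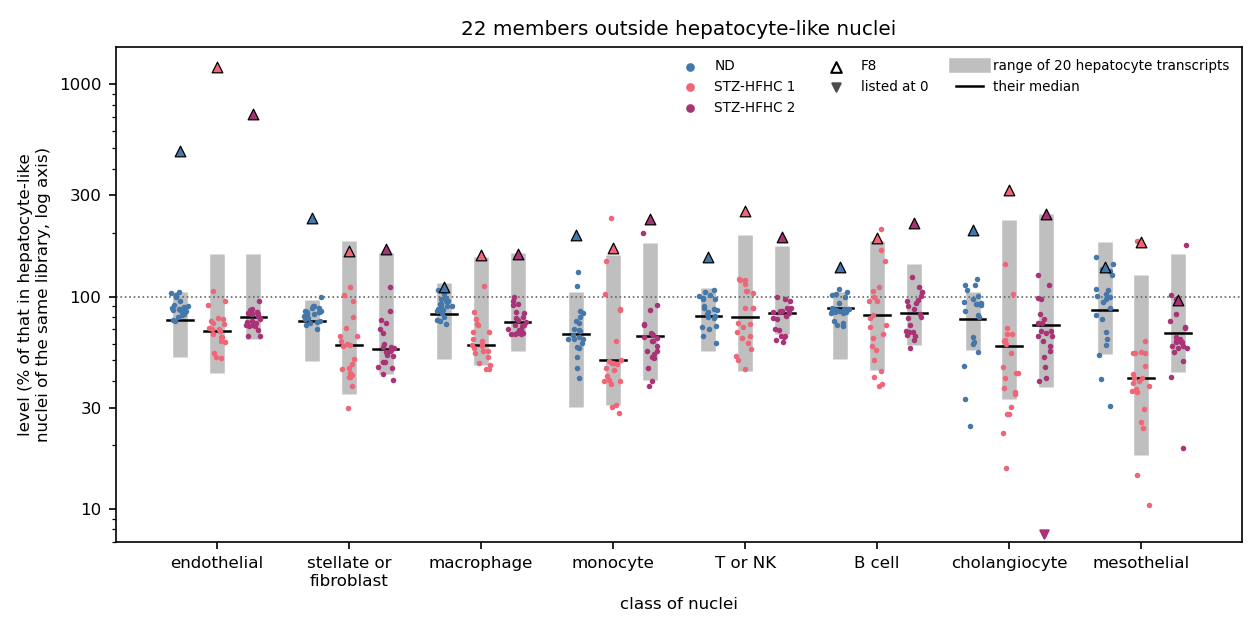
Level of the 22 members in each other class as a percentage of the hepatocyte-like level of the same library, on a log axis, against the range of 20 fixed hepatocyte transcripts. Of 528 values 458 lay inside that range. F8 was above it in all 3 libraries in endothelial-like nuclei, by more than counting error. F8 was also above it in all 3 libraries in monocyte-like, T or NK cell-like, B cell-like and cholangiocyte-like nuclei. In those classes the margin was not beyond counting error in every library.

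Only 2 members were highest in hepatocyte-like nuclei of all 3 libraries, beside 1.68% of all genes with at least 50 UMIs. F5, the cofactor of factor Xa, reached 385 CPM in the ND library and 349 and 341 CPM in STZ-HFHC 1 and 2. Plg encodes plasminogen, the precursor of the protease plasmin, and reached 571, 218 and 171 CPM in the same order. The lead over the next class was as low as 1.10-fold for F5 and 1.04-fold for Plg, and for each gene the intervals of the top 2 classes were apart in only 1 library. Most other liver-secreted members were led by different classes in different libraries, often by mesothelial-like or cholangiocyte-like sums of few UMIs.

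A further 4 members were highest in the same other class in all 3 libraries, against 15.4% of all genes. They were F8 in endothelial-like nuclei (1.23% of all genes), F13a1 in monocyte-like nuclei (3.93%), and F3 and Plat in mesothelial-like nuclei (3%). F8 encodes coagulation factor VIII, the cofactor of factor IXa. In endothelial-like nuclei it stood at 275 CPM in ND (interval 263 to 288), 857 in STZ-HFHC 1 (823 to 893) and 520.5 in STZ-HFHC 2 (498 to 544). Its hepatocyte-like levels were 56.5, 70.9 and 71.6 CPM, so the groups of values did not overlap. The lead over the next class was at least 2.07-fold in every library, and endothelial-like nuclei held 43.1%, 55.3% and 38.8% of the F8 UMIs of the 9 named classes. After thinning, 28.9% (26.2 to 31.7), 58.3% (54.8 to 61.7) and 48.2% (45.0 to 51.4) of endothelial-like nuclei held an F8 UMI, against 6.34%, 6.52% and 7.02% of hepatocyte-like nuclei. F8 was also high in cluster 7, which mixed endothelial, stellate and macrophage markers and stayed unnamed, at 647, 754 and 515 CPM. The shares of F8 UMIs given above leave out this cluster, which held 108, 3066 and 2493 of them. In the STZ-HFHC mice that was more than in cluster 6, their main endothelial-like cluster, which held 2336 and 1932. The annotation places F8 over part of another protein-coding gene, Fundc2, and whether counting used strand is not given in the sources used here.

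F13a1 encodes the catalytic subunit of factor XIII, the enzyme that crosslinks fibrin. Its monocyte-like levels were 54.9 CPM in ND, from 5 UMIs, then 401 CPM from 579 UMIs in STZ-HFHC 1 and 289 CPM from 288 UMIs in STZ-HFHC 2. Monocyte-like nuclei led the next class by at least 12.3-fold and held 38.5%, 85.3% and 75.4% of the F13a1 UMIs of the named classes. After thinning, 2 of 31 ND monocyte-like nuclei held a UMI, 6.45% (0.791 to 21.4), against 18.0% and 12.3% in the STZ-HFHC mice. No F13a1 UMI was seen in 5206 thinned ND hepatocyte-like nuclei, which allows a share of up to 0.0576%, and the STZ-HFHC shares were 0.435% and 0.0569%. F13b, the carrier subunit of the same enzyme, followed the hepatocyte transcripts instead, at 65.8, 37.2 and 35.6 CPM in hepatocyte-like nuclei and no class above their range in all libraries.

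F3 encodes tissue factor, the initiator of coagulation, and Plat encodes tissue plasminogen activator. Both were highest in mesothelial-like nuclei, F3 at 38.9, 45.8 and 34.6 CPM from 4, 10 and 5 UMIs. Plat stood at 9.73, 32.1 and 6.92 CPM from 1, 7 and 1 UMIs. At this depth neither lead was separated from the next class by its intervals in any library.

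**Figure D3:**
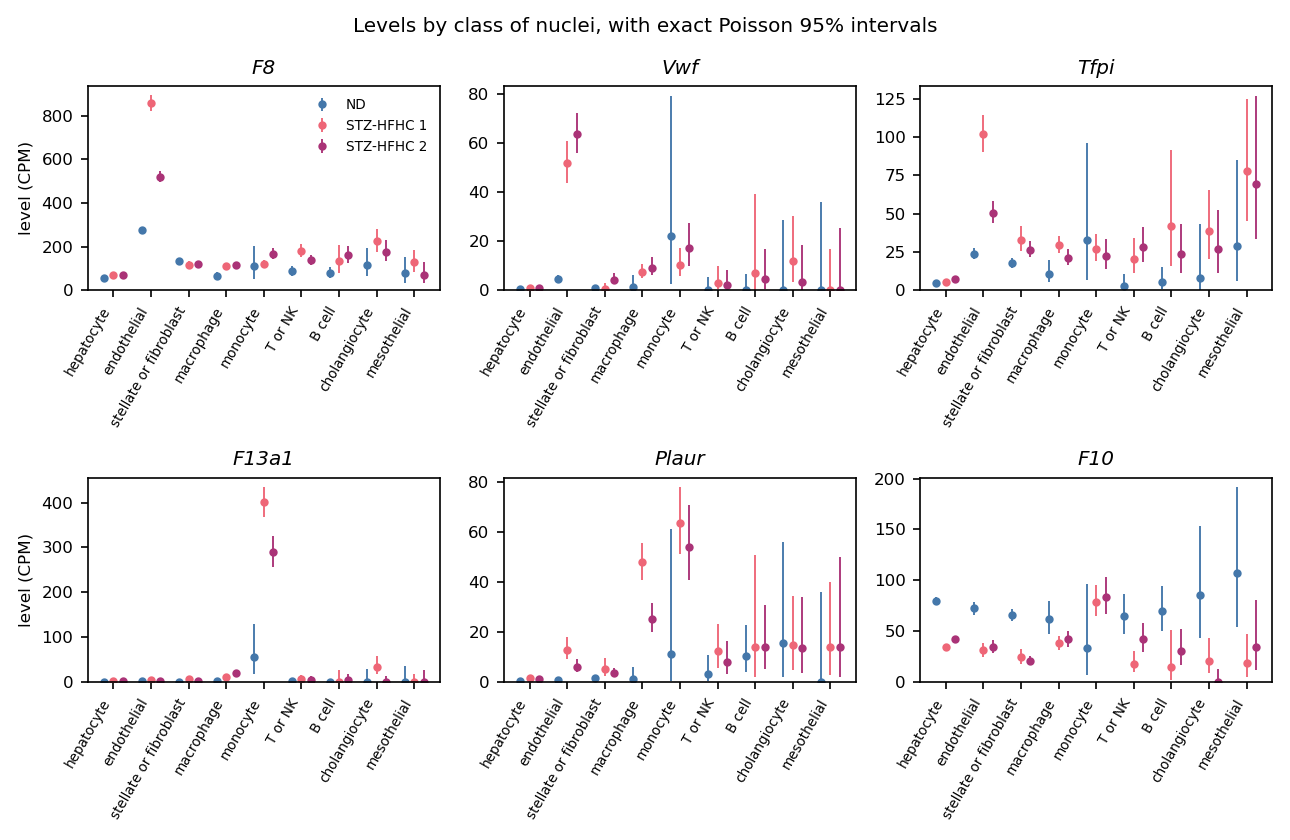
Levels in CPM of F8, Vwf, Tfpi, F13a1, Plaur and F10, by class of nuclei and library, with exact Poisson 95% intervals that cover counting error only. F8 was highest in endothelial-like nuclei and F13a1 in monocyte-like nuclei of all 3 libraries.

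Above the whole range of the fixed hepatocyte transcripts by more than counting error, in at least 1 other class of all libraries, were 7 members, beside 17.6% of all genes. They were F13a1 in monocyte-like nuclei, F8, Vwf, Tfpi, Thbd and F2r in endothelial-like nuclei, and Procr in stellate- or fibroblast-like nuclei. Vwf encodes von Willebrand factor, the carrier of factor VIII in plasma, and its endothelial-like levels were 4.50, 51.7 and 63.8 CPM from 32, 141 and 238 UMIs. Tfpi encodes tissue factor pathway inhibitor, which blocks the initiating complex, and stood at 23.8, 102 and 50.6 CPM in endothelial-like against 4.60, 5.48 and 7.52 CPM in hepatocyte-like nuclei. Tfpi also passed in stellate- or fibroblast-like nuclei, at 17.6, 33.1 and 26.5 CPM. Vwf passed too in monocyte-like nuclei, where the ND value rested on 2 UMIs.

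Thbd encodes thrombomodulin, which turns thrombin into an activator of protein C. Its endothelial-like levels were 1.83, 19.1 and 4.55 CPM from 13, 52 and 17 UMIs. F2r, the main thrombin receptor, stood at 5.63, 33.4 and 22 CPM in endothelial-like nuclei. Procr, the endothelial protein C receptor, had only 7, 7 and 6 UMIs in stellate- or fibroblast-like nuclei. Over the named classes of all libraries Procr had 95 UMIs, Thbd 226 and F2r 789.

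Other members were above the hepatocyte-like level in some classes without passing that limit in all 3 libraries. F10, the precursor of the protease that forms thrombin, stood in monocyte-like nuclei at 32.9 CPM from 3 UMIs in ND, 78.9 from 114 UMIs and 83.4 from 83 UMIs. In hepatocyte-like nuclei F10 was at 79.5, 33.7 and 41.6 CPM. The monocyte-like value was therefore above the hepatocyte-like one in both STZ-HFHC mice but not in ND. Serping1, the inhibitor of complement C1 and of the contact proteases, was at 253, 188 and 201 CPM in mesothelial-like nuclei and 255, 103 and 114 CPM in hepatocyte-like nuclei. Plaur, the urokinase receptor, reached 63.6 and 54.2 CPM in monocyte-like and 47.8 and 25.3 CPM in macrophage-like nuclei of the STZ-HFHC mice, where each ND class held 1 UMI. Its hepatocyte-like levels were 0.348, 1.60 and 0.935 CPM. Plau, the gene of urokinase, had 0, 52 and 10 UMIs in macrophage-like nuclei, or 0, 14.7 and 3.41 CPM, against 0.116, 0.928 and 0.117 CPM in hepatocyte-like nuclei.

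In hepatocyte-like nuclei the 33 genes together took 0.405% of ND UMIs and 0.259% and 0.243% of those of STZ-HFHC 1 and 2. Of 28 members with enough UMIs, 6 were lower in both STZ-HFHC mice, where 5.73% of all genes were, and 2 were higher, where 7.16% of all genes were. The count of higher members was near the share of all genes, and Plaur reached the minimum of UMIs through the STZ-HFHC libraries. Nothing is therefore read from the count of higher members. The median log2 ratio of the members was -0.55 and -0.65, and that of all genes was 0.04 and 0.07. The members left untested for few UMIs were F13a1, Procr, Thbd, Plat and Plau. Dividing by the median of gene ratios in place of total UMIs shifted hepatocyte-like log2 ratios down by 0.03 and 0.07, and those of the other classes by -0.01 to 0.21.

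Fibrinogen chains were among the 6 that were lower. Fgb stood at 293 CPM in the ND library and at 92.6 and 97.2 CPM in STZ-HFHC 1 and 2, log2 ratios of -1.66 and -1.59 (mean -1.63 ± 0.05, SD, n = 2). Fgg stood at 189.7, 53.8 and 58.0 CPM, with log2 ratios of -1.82 and -1.71. Fga, at 164, 85.0 and 75.6 CPM, missed the rule in one mouse with log2 ratios of -0.95 and -1.12. In the whole libraries, with no classes drawn, Fgb was at 269, 102 and 91.7 CPM. F13b had log2 ratios of -0.82 and -0.88.

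Nuclei led by mitochondrial transcripts had higher fibrinogen levels than hepatocyte-like nuclei of the other clusters in both conditions. The hepatocyte-like cluster 12 consisted of 901 ND nuclei led by mitochondrial and major urinary protein genes, and its Fgb level was 583 CPM against 247 and 201 CPM in the other main ND hepatocyte-like clusters. In STZ-HFHC the mitochondria-led cluster 9 was left unnamed, and its Fgb level was 313 and 264 CPM. Without cluster 12 the ND level of Fgb was 241 CPM and the log2 ratios were -1.38 and -1.31, those of Fgg -1.59 and -1.48. F2 then no longer passed, with log2 ratios of -1.13 and -0.81, which left 5 lower members where 4.97% of all genes were lower. How far such nuclei set the differences was not tested.

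Among the vitamin K-dependent factors, F2, the precursor of thrombin, stood at 153, 57.1 and 71.2 CPM, log2 ratios of -1.42 and -1.11. F10 missed the rule in one mouse, at -1.24 and -0.93. Proc, the precursor of the anticoagulant protein C, stood at 233, 115 and 133 CPM and also missed it, at -1.02 and -0.80. All 3 genes thus had both STZ-HFHC values below ND. F7, whose product pairs with tissue factor, stood at 47.7, 33.8 and 41.7 CPM, with ratios of -0.49 and -0.19. F9, the gene of factor IX, was at 63.7, 77.6 and 72.2 CPM, the STZ-HFHC values above ND by 0.29 and 0.18 on the log2 scale. The vitamin K cycle supplies the cofactor for modifying these proteins. Vkorc1, the reductase of the cycle, stood at 11.3, 5.82 and 5.80 CPM with log2 ratios of -0.94 and -0.95, just short of the rule. Ggcx, the carboxylase, stood at 32, 25.1 and 32 CPM with ratios of -0.35 and 0.00.

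Cofactors stayed close to ND, F5 at -0.14 and -0.17 and F8 at 0.33 and 0.34. The contact system was mixed. F11 stood at 58.9, 38.1 and 34 CPM, F12 at 144, 95 and 102 CPM, and Klkb1, the gene of plasma kallikrein, at 144, 87.8 and 72.4 CPM. The log2 ratios of these 3 protease genes ran from -0.99 to -0.50, none past the rule in both mice. Kng1 and Kng2 are neighbouring kininogen genes on chromosome 16 whose products carry bradykinin. Kng1 stood at 243, 223 and 153 CPM, whereas Kng2 stood at 132, 265 and 199 CPM, with log2 ratios of -0.12 and -0.66 against 1.00 and 0.59. The order of the pair was thus reversed between ND and both STZ-HFHC libraries. Reads that fit both paralogs could be split between them in counting, which was not examined.

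Of the inhibitors, Serping1 was lower, with log2 ratios of -1.30 and -1.16. Serpinc1, which encodes antithrombin, stood at 557, 411 and 405 CPM, log2 ratios of -0.44 and -0.46, and Serpind1, heparin cofactor II, stood at 47.4, 39.1 and 35.6 CPM, with -0.28 and -0.41. In fibrinolysis both Plg and the gene of its inhibitor were lower. Plg had log2 ratios of -1.39 and -1.74, and Serpinf2, which encodes the plasmin inhibitor alpha-2-antiplasmin, stood at 109.6, 44.3 and 44.9 CPM with -1.31 and -1.29. The 2 members that were higher had low levels. F2r stood at 2.09, 7.59 and 6.04 CPM, log2 ratios of 1.86 and 1.52. Plaur stood at 0.348, 1.60 and 0.935 CPM from 52 UMIs in all, most of them in the STZ-HFHC libraries, through which it reached the minimum. Its log2 ratios were 2.16 (0.99 to 3.53) and 1.38 (0.27 to 2.71).

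**Figure D4:**
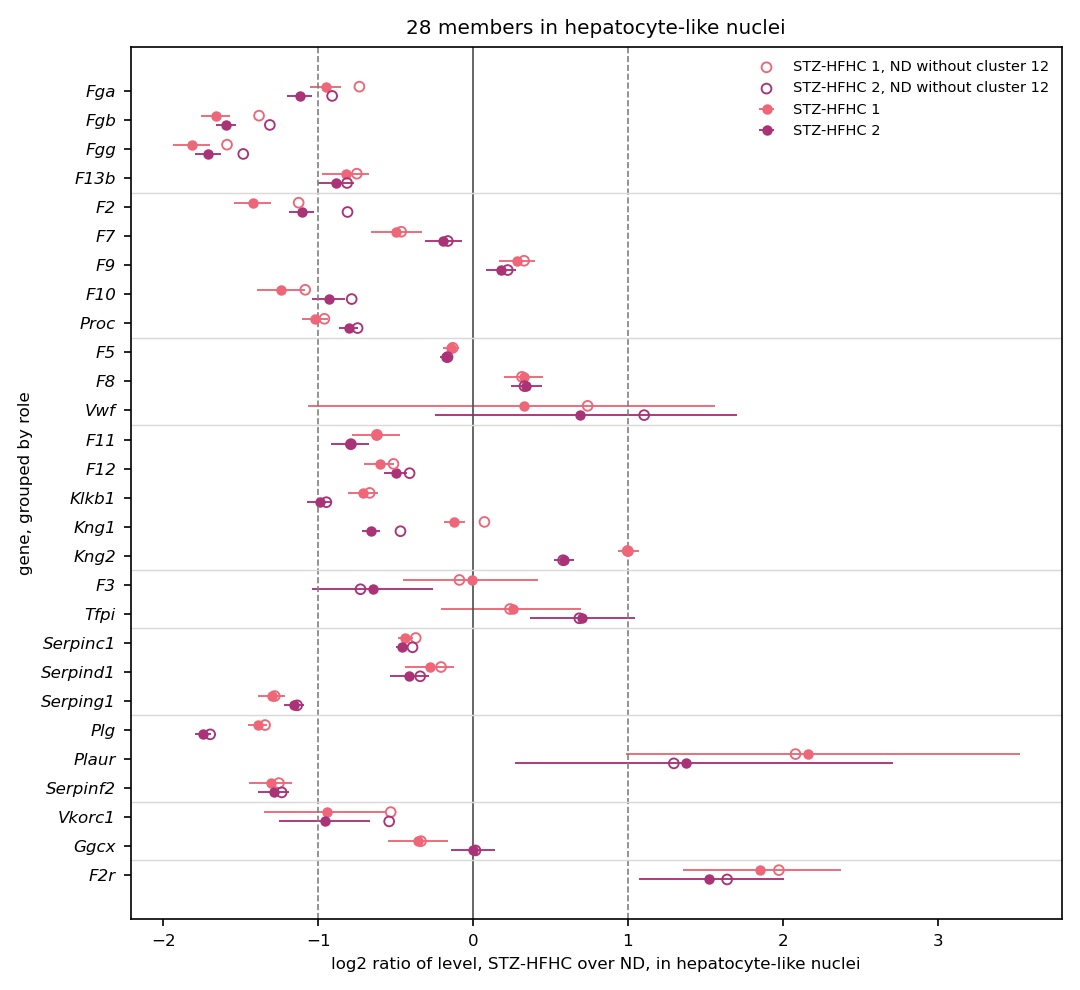
Log2 ratio of level in hepatocyte-like nuclei, STZ-HFHC over ND, for the 28 members with at least 50 UMIs, 1 point per STZ-HFHC mouse. Fgb, Fgg, F2, Serping1, Plg and Serpinf2 lay below -1 in both mice, and Plaur and F2r above 1. Plaur reached 50 UMIs through the STZ-HFHC libraries.

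The rule was also applied in the other classes. In endothelial-like nuclei 10 of 28 tested members were lower, where 5.24% of all genes were, and the members' median log2 ratios were -0.89 and -0.76. In stellate- or fibroblast-like nuclei the count was 15 of 26 (8.47% of all genes), in macrophage-like nuclei 10 of 28 (5.14%) and in monocyte-like nuclei 9 of 22 (7.45%). The members' medians there were -1.28 and -1.28, -1.10 and -0.80, and -0.92 and -0.95. Fgb, Fgg, F2, Plg and Serpinf2 were lower in all 4 classes, beside hepatocyte-like nuclei. F13b, Proc and Klkb1 were also lower in all 4 classes, but missed the rule in hepatocyte-like nuclei. T or NK cell-like nuclei, which do not make these proteins, had 8 of 22 members lower (4.48%). The counts were 5 of 18 in B cell-like (4.36%), 7 of 12 in cholangiocyte-like (5.05%) and 3 of 6 in mesothelial-like nuclei (4.44%). No member was higher in these last 4 classes, where 10.9%, 5.29%, 9.73% and 7.47% of all genes were. Hepatocyte transcripts were present in every class, as given above, and their part in these counts was not tested.

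Higher in endothelial-like nuclei were 5 members, where 8.18% of all genes were, namely Vwf, Tfpi, Thbd, Plaur and F2r. Of these, Vwf, Thbd, Plaur and F2r had under 50 UMIs in ND. They reached the minimum through the STZ-HFHC libraries, so nothing is read from this count. Vwf had log2 ratios of 3.50 and 3.80. Plaur had ratios of 3.83 and 2.72, from 0.844, 12.8 and 5.89 CPM and 6, 35 and 22 UMIs. Those of Tfpi were 2.10 and 1.09, those of Thbd 3.34 and 1.30 and those of F2r 2.56 and 1.96. F8, at 1.64 and 0.92, missed the rule in one mouse. In the unnamed cluster 7, which held 44 ND nuclei, F2r stood at 29.97 CPM in ND (9.73 to 69.9, 5 UMIs). Its STZ-HFHC levels there were 22.9 and 18.2 CPM, so ND was not lower. Tfpi stood there at 59.9 (28.7 to 110), 87.8 and 62.98 CPM. Plaur stood at 11.99 (1.45 to 43.3), 29.3 and 15.1 CPM, and Vwf at 0 (0 to 22.1), 20.4 and 13.8 CPM. The STZ-HFHC values of F2r, Tfpi, Plaur and Vwf were inside the ND intervals. How far separate clusters set the endothelial-like ratios was not tested. Plat had no UMI in ND endothelial-like nuclei and 13 and 12 in the STZ-HFHC mice, which is at least 11.3-fold and 7.61-fold higher against a floor of 3 counts in the ND class. Median depth was 5199 UMIs in ND and 1767 and 1933.5 in STZ-HFHC endothelial-like nuclei, and after thinning 0.661%, 3.63% and 5.36% of them held a Vwf UMI.

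In stellate- or fibroblast-like nuclei only F2r was higher (11.3% of all genes), at log2 ratios of 1.39 and 1.22. That direction rested on cluster 11, whose 1047 ND nuclei had 6.32 CPM of F2r. In cluster 5, which held nuclei of all 3 libraries, F2r stood at 28.6 CPM in ND (13.7 to 52.6, 10 UMIs in 143 nuclei) and at 19.4 and 17.4 CPM in the STZ-HFHC mice, so ND was not lower there. In macrophage-like nuclei F13a1, Vwf, Plau, Plaur and F2r met the rule, where 14% of all genes did, but ND held 1, 1, 0, 1 and 0 UMIs of them. They reached the minimum of 50 UMIs through the STZ-HFHC libraries alone, so nothing is read from this count. Plaur rested on 169 and 74 UMIs in the STZ-HFHC mice, log2 ratios of 4.89 (2.97 to 10.78) and 3.97 (2.03 to 9.87). Plau was at least 4.55-fold and 1.05-fold higher against the floor, the second bound being short of 2-fold. In monocyte-like nuclei, of which ND had 40, F13a1, F10 and Plaur met the rule, where 12.1% of all genes did, on 5, 3 and 1 ND UMIs, and these too reached the minimum through the STZ-HFHC libraries. F13a1 had log2 ratios of 2.73 (1.64 to 4.50) and 2.26 (1.16 to 4.03). For F10 the intervals, -0.32 to 3.56 and -0.26 to 3.65, included no difference.

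**Figure D5:**
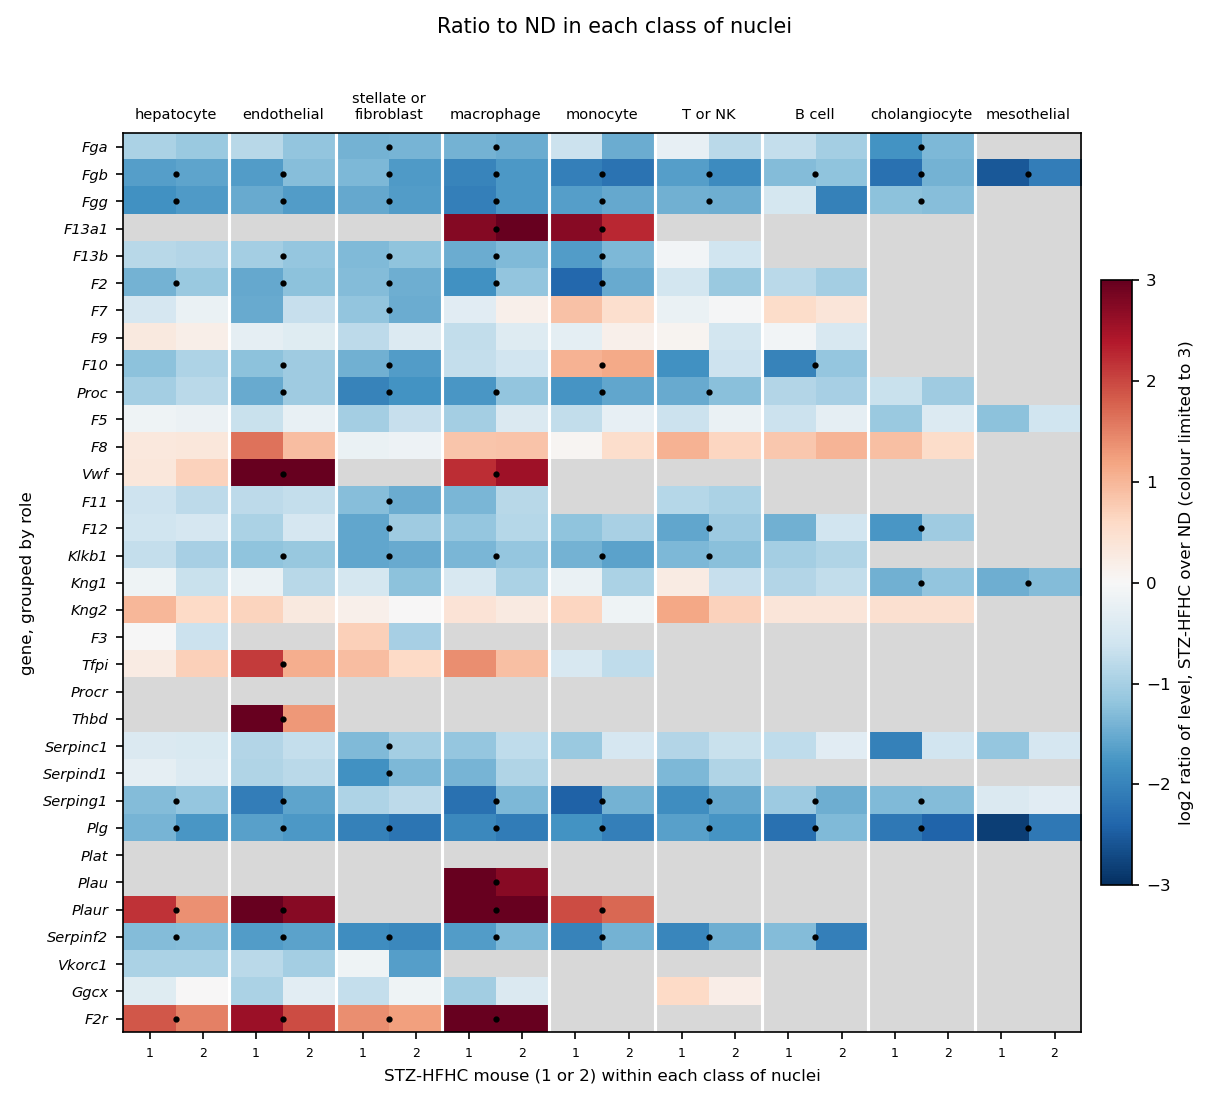
Log2 ratio of level, STZ-HFHC over ND, of each member in each class of nuclei and STZ-HFHC mouse, as a colour scale centred on 0. Fibrinogen, F2 and Plg were below ND across classes. Vwf, Tfpi, Thbd and F2r were above it in endothelial-like nuclei. Of these, Vwf, Thbd and F2r had under 50 UMIs in ND and reached the minimum through the STZ-HFHC libraries.

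Within the hepatocyte-like class, nuclei were also ranged from pericentral to periportal by fixed lists of 10 pericentral and 10 periportal genes. These gave 424, 234 and 364 pericentral and 4238, 1104 and 3034 periportal nuclei. None of 26 members tested passed 2-fold in all 3 libraries, beside 1.95% of all genes toward pericentral and 1.21% toward periportal. F5 leaned pericentral, at log2 ratios of 0.49, 0.78 and 0.65 in ND, STZ-HFHC 1 and STZ-HFHC 2. Serpind1 leaned periportal, at -0.53, -0.68 and -0.70. The members' medians were -0.06, -0.01 and 0.05.

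The other 28 genes of the pathway gave few calls. In hepatocyte-like nuclei 22 could be tested, of which Anxa2, a subunit of a plasminogen receptor, was higher at 2.28, 11.3 and 10.2 CPM. Hgfac, a protease related to factor XII, was lower at 44.1, 15.9 and 18.5 CPM. Highest in 1 class of all libraries were Serpina10 and Pzp in hepatocyte-like nuclei (1.68% of all genes). In another class (15.4%) they were Adamts13 in stellate- or fibroblast-like, Lrp1 in macrophage-like, Serpinb2 in monocyte-like and Plgrkt in mesothelial-like nuclei. The lead was as low as 1.005-fold for Serpina10, 1.03-fold for Pzp, 1.07-fold for Lrp1, 1.02-fold for Plgrkt and 3.95-fold for Adamts13. Serpinb2 had 25 UMIs in all, under the minimum. Intervals set the top class apart in 2 libraries for Adamts13 and for Lrp1, and in none for the others. Adamts13 encodes the protease that cleaves von Willebrand factor, and its level was 30.7, 57.1 and 95 CPM. Thus Vwf and the gene of its protease had their highest STZ-HFHC levels in different classes of nuclei.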

How the data were processed

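Nuclei from frozen mouse liver were profiled with the 10x Genomics 3' v3.1 chemistry. The values deposited by the authors are raw UMI counts of each gene in each barcode, made with Cell Ranger 7.0.1 on mm10 according to the submitters' processing notes. Whether intronic reads were counted, and on which strand, is not given in the sources used here. Barcodes with 200 to 5000 genes and at most 5% mitochondrial UMIs were kept (28336 of 30989, the latter being the number the study's methods give after its own filter). Counts were normalized, log-transformed and clustered in Scanpy 1.11.5 (2000 variable genes, 30 components, Leiden resolution 1), without 61 coagulation and fibrinolysis genes. Clusters were named from fixed markers, and the rule was revised once after the clusters were seen. Scrublet's automatic threshold marked 1, 0 and 0 nuclei and so had not worked; nuclei with high scores were kept and left out in an alternative.

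UMIs were summed by class and library and expressed as CPM with exact Poisson 95% intervals, and shares of nuclei at 1000 UMIs with Clopper-Pearson intervals. Ratios used 0.5 added to each count. The floor for a count of 0 was 3 counts per library. All members were named, with values in the class where each was highest or in hepatocyte-like nuclei. Of 28 other pathway genes, those past the rule in hepatocyte-like nuclei or highest in 1 class were named. Members and lists were chosen with earlier results of these data known. The calling rule was tested on simulated data. Positions are from GRCm38, promoters from RefSeq.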

Additional observations from a re-analysis of the deposited data

Results flagged for a closer look

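F10, the gene of coagulation factor X, had STZ-HFHC to ND ratios of opposite sign in different classes of nuclei. The mean log2 ratio of the 2 STZ-HFHC mice was 1.09 in monocyte-like nuclei, where the ND value rested on 3 UMIs. The intervals of that ratio, given above, included no difference in either mouse. The mean was -1.15 in endothelial-like, -1.56 in stellate- or fibroblast-like and -1.57 in B cell-like nuclei. Both mice had the sign of the mean in each of these classes, but the difference between the classes was not tested. The monocyte-like levels of both STZ-HFHC mice were above the range of the fixed hepatocyte transcripts, and the ND level was inside it. Endothelial-like, stellate- or fibroblast-like and B cell-like levels were not above that range in any library, so their ratios were not read as expression of those nuclei.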

How the results depend on the processing

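No paired analysis was possible because the ND and STZ-HFHC libraries came from different mice. Recomputing under other settings gave 267 values close to the reported ones, 81 that moved and none that changed sign against a call. Members higher in STZ-HFHC hepatocyte-like nuclei numbered 2, but 4 with all barcodes and 4 with no minimum of UMIs. Calls of members past 2-fold in either direction, counted once in each class where a member was called, numbered 58 in 4 other classes. The shares of all genes in each of these classes are given above. Such calls numbered 29 at Leiden resolution 0.5, where the STZ-HFHC endothelial cluster lost its name and monocytes merged with macrophages. By zone 1 member passed with all barcodes. The mean share of nuclei with a UMI was 16% at 1000 UMIs, 9.34% at 500 and 41% without thinning. Leaving out either STZ-HFHC mouse gave 2 to 3 members highest in hepatocyte-like nuclei, 4 to 5 highest in another class, 7 to 8 above the hepatocyte range, 7 to 8 lower and 2 to 3 higher. The calls past 2-fold in other classes, counted once per class, then numbered 64 to 70. Without STZ-HFHC replicate 1 Fga was called lower, and without replicate 2 F10, Proc and Kng2 passed. F2 was lost with all barcodes and without cluster 12, a setting chosen after seeing the data, as was counting cluster 3 as hepatocyte-like, which added F10 and F13a1. F10 was also called lower with median-of-ratios scaling, and F13a1 passed the rule in hepatocyte-like nuclei under 7 of 11 settings. F13a1 led macrophage-like nuclei and F8 stellate- or fibroblast-like nuclei at resolution 0.5, and at resolution 2 the class of F13a1 differed between libraries. A single ND library and small classes, 40 monocyte-like nuclei in ND, limit every ratio.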
